A study of Mus musculus with 2 samples.

Results

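The genes described here are 8 negative-feedback regulators and outputs of the ERK kinase pathway (Dusp4, Dusp5, Dusp6, Spry1, Spry2, Spred1, Spred2 and Etv5) and the insulin receptor substrate gene Irs2. They were chosen by name, and every transcript of each gene in the deposited table was taken, which gave 18 of its 93615 transcripts and 9 of the 36980 gene symbols matched. The Setdb1 Δ/Δ culture was of pro-B cells, B cell precursors of mouse bone marrow, in which the gene for the histone H3 lysine 9 methyltransferase SETDB1 was deleted, and the Setdb1 C/C culture carried undeleted alleles. Both genotypes also carried a bcl2 transgene, and both were purified by flow cytometry and grown with interleukin 7 (IL-7, 5 ng/µl) until day 4. There was 1 ribodepleted paired-end library per genotype (101 bp reads), so every difference below is between 2 libraries, has no replicate check and no p-value, and its interval covers counting error only. The labels give no age, strain, number of animals or Cre driver, and do not say which exons were removed.

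ERK is the last kinase of the RAS, RAF and MEK cascade that growth factor, cytokine and antigen receptors switch on. Active ERK raises transcription of genes that damp the same cascade: dual-specificity phosphatases remove the activating phosphates from MAP kinases, and Sprouty and Spred proteins act upstream on RAS and RAF. Levels of these transcripts are therefore often read as a record of pathway output. In developing B cells the cascade works downstream of the pre-B cell receptor, while IRS2 is an adaptor that links insulin, IGF1 and some cytokine receptors to PI3 kinase, and its gene is a known target of FOXO transcription factors, which AKT inhibits.

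Values are RPKM, the reads on a transcript divided by its length in kilobases and by the depth of the library in megareads. The depths recovered from the values were 193 M reads (M, mega) in Δ/Δ and 171 M in C/C. Setdb1 itself measured 12.6 RPKM in Δ/Δ and 17.0 RPKM in C/C over the whole transcript, which does not show how complete the deletion was. Markers of the labelled cell type were present in both libraries: all 12 B lineage markers were measured, with a summed level of 3426 RPKM in Δ/Δ and 4744 RPKM in C/C. By the size rule given below 4 of them were lower, 0 higher and 8 within it. Cd79a (153 RPKM in Δ/Δ, 548 RPKM in C/C) and Cd79b (651 RPKM in Δ/Δ, 1372 RPKM in C/C) were among the lower ones. Within the rule, Dntt (256 RPKM in Δ/Δ, 142 RPKM in C/C) and Vpreb1 (893 RPKM in Δ/Δ, 745 RPKM in C/C) stood higher in Δ/Δ. These 4 were chosen after their values were seen. Markers of other cells had higher summed levels in Δ/Δ. Over 12 myeloid markers they summed to 228 RPKM in Δ/Δ and 22.1 RPKM in C/C. Of these, 5 of 7 measured ones passed the size rule given below as higher, as did 6.28% of all measured genes. The sums were 12.9 RPKM in Δ/Δ and 1.42 RPKM in C/C for 7 dendritic cell markers (4 of 4 measured higher), and 75.8 RPKM in Δ/Δ and 8.61 RPKM in C/C for 8 erythroid and platelet markers (6 of 6 measured higher). They were 5.57 RPKM in Δ/Δ and 3.07 RPKM in C/C for 7 T lineage markers (1 of 3 measured higher). For 8 NK and mast cell markers they were 2.93 RPKM in Δ/Δ and 1.07 RPKM in C/C (1 of 1). For 7 stromal markers they were 3.61 RPKM in Δ/Δ and 0.918 RPKM in C/C (1 of 1). Most of the T lineage and stromal differences came from Cd4 (2.62 RPKM in Δ/Δ, 0.150 RPKM in C/C) and Timp3 (2.93 RPKM in Δ/Δ, 0.460 RPKM in C/C). Zap70 (0.933 RPKM in Δ/Δ, 2.06 RPKM in C/C), Col1a1, Cxcl12 and Pdgfrb were lower in Δ/Δ. Lower too, and under 1 RPKM in both libraries, were 1 marker each of 3 other lists. These were the dendritic Xcr1 (0.0810 RPKM in Δ/Δ, 0.132 RPKM in C/C) and the erythroid Klf1 (0.0980 RPKM in Δ/Δ, 0.214 RPKM in C/C). The last was the NK marker Nkg7 (0.206 RPKM in Δ/Δ, 0.354 RPKM in C/C). The neutrophil genes Elane and Mpo were listed at 0 in C/C and at 0.214 and 0.434 RPKM in Δ/Δ, under 1 RPKM in both libraries. Xist measured 23.7 RPKM in Δ/Δ and 0.0940 RPKM in C/C, and the Y-linked gene Eif2s3y was listed at 0 in Δ/Δ and measured 22.3 RPKM in C/C, so genotype and sex cannot be told apart for any gene below. In bulk RNA, fewer cells of a type and less RNA per cell cannot be told apart either, and the part of these cells in the results below was not tested.

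The 9 genes did not move as a block. Dusp6, Irs2 and Etv5 were lower in the Δ/Δ library, at 0.384, 0.370 and 0.408 of their C/C levels. Dusp5 and Spry2 were at 1.72 and 1.83 times their C/C levels, short of the size rule used here. Spred1, Spred2, Spry1 and Dusp4 lay closer to 1. In place of a test, a gene was called higher in Δ/Δ when log2((Δ/Δ + 0.5) / (C/C + 0.5)) reached 1, and lower when it reached -1, which is a 2-fold change on that scale. This size rule was applied to genes that reached 1 RPKM in either library, here called measured. Of the 9 genes 7 were measured, 3 of them lower and 0 higher. Among all 12556 measured genes 6.66% were lower and 6.28% higher by the same rule, and their median log2 ratio was -0.09. The excess of lower calls turned round with the scaling: centring on that median left 728 genes lower and 906 higher.

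**Figure D1:**
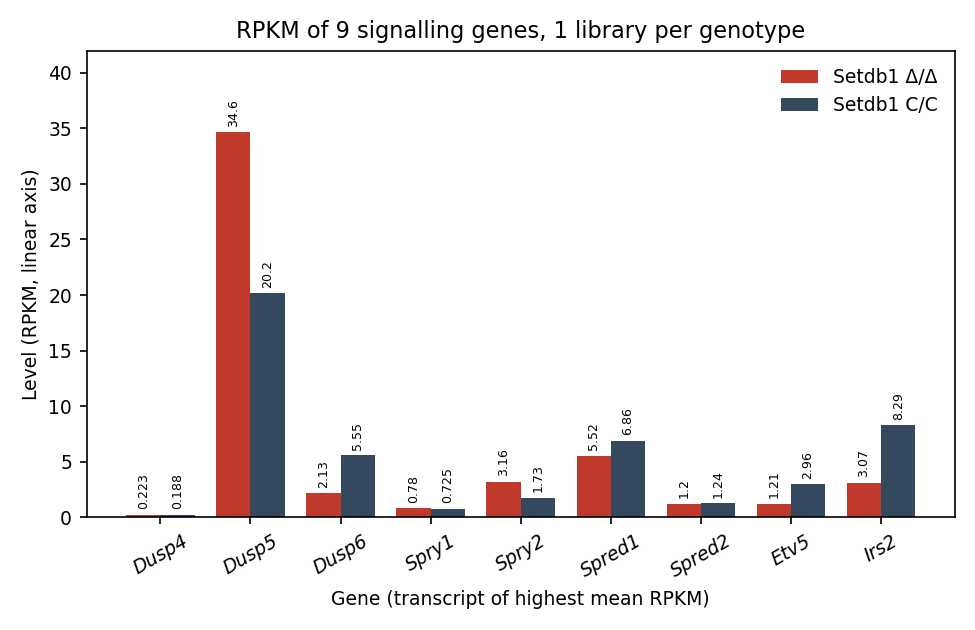
Level of each of the 9 genes in RPKM (vertical axis, linear), with the Setdb1 Δ/Δ library left and the Setdb1 C/C library right in each pair of bars; each bar is 1 library and has no error bar. Dusp5 was the most abundant gene in both libraries, while Dusp6, Etv5 and Irs2 stood lower in Δ/Δ.

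Dusp5 encodes a nuclear phosphatase specific for ERK. Its single listed transcript (ENSMUST00000038287, GRCm38 chromosome 19, 53529109 to 53542431, plus strand) measured 34.6 RPKM in Δ/Δ and 20.2 RPKM in C/C. The ratio of 1.72 had a 95% counting interval of 1.66 to 1.78, from 16557 reads in Δ/Δ and 8506 reads in C/C. At 0.77 its log2 ratio was short of the size rule, although 90.9% of measured genes had a lower one. It was the most abundant of the 9 genes, above 80.1% of measured genes in Δ/Δ and 66.5% in C/C. An antisense RNA annotated over its first exon shares 547 exonic bases with it and was not analysed here. The library kit named in the labels does not mark strand by itself and no strand setting is given, so reads of the gene and of this partner cannot be told apart.

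Dusp6 encodes the cytoplasmic phosphatase that removes the activating phosphates from ERK and is among the most used readouts of ERK activity. Its listed transcript (ENSMUST00000020118, chromosome 10, 99263231 to 99267488, plus strand) measured 2.13 RPKM in Δ/Δ and 5.55 RPKM in C/C, from 1151 reads in Δ/Δ and 2646 in C/C. It fell, with a log2 ratio of -1.20 and a plain ratio of 0.384 (interval 0.348 to 0.424). Dusp4, a nuclear phosphatase that acts on ERK and other MAP kinases (ENSMUST00000033930, chromosome 8, 34807297 to 34819894, plus strand), was the least abundant of the 9 genes at 0.223 RPKM in Δ/Δ and 0.188 RPKM in C/C. These levels rest on 118 reads in Δ/Δ and 88 in C/C, and the ratio of 1.19 had an interval of 0.788 to 1.79. Dusp5 was thus the main phosphatase transcript of the 3 in both libraries, at 34.6 RPKM beside 2.13 RPKM of Dusp6 in Δ/Δ and 20.2 RPKM beside 5.55 RPKM in C/C.

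The Sprouty proteins SPRY1 and SPRY2 are membrane-associated inhibitors that interfere with GRB2, RAS and RAF. Spry2 (ENSMUST00000022709, chromosome 14, 105891947 to 105896819, minus strand) measured 3.16 RPKM in Δ/Δ and 1.73 RPKM in C/C, from 1276 reads in Δ/Δ and 615 in C/C. Its ratio was 1.83 (interval 1.59 to 2.10), and at 0.72 its log2 ratio was short of the size rule. Spry1 stayed under 1 RPKM in both libraries, with 0.780 RPKM in Δ/Δ and 0.725 RPKM in C/C for its most abundant transcript (ENSMUST00000038569, chromosome 3, 37639958 to 37644598, plus strand). Its 3 listed transcripts share most of their exons and had ratios of 1.06 to 1.08, and the interval of the most abundant one was 0.862 to 1.34. An unstranded overlap exists here too, since a gene model on the opposite strand, not analysed here, shares 710 exonic bases with Spry1.

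SPRED1 and SPRED2 carry a Sprouty-like domain and recruit neurofibromin, the RAS inactivator encoded by Nf1, to the membrane. Spred1 had 2 listed transcripts with ratios on either side of 1. The longer one (ENSMUST00000028829, 6016 bases, chromosome 2, 117121374 to 117182279, plus strand) measured 3.95 RPKM in Δ/Δ and 3.62 RPKM in C/C, a ratio of 1.09 (interval 1.03 to 1.16). The shorter one (ENSMUST00000110901, 1440 bases), which ends within an intron of the longer, measured 5.52 RPKM in Δ/Δ and 6.86 RPKM in C/C, a ratio of 0.805 (interval 0.729 to 0.888). Neither passed the size rule, and no direction is given for the gene. Spred2 (chromosome 11) measured 1.20 RPKM in Δ/Δ and 1.24 RPKM in C/C for its most abundant transcript (ENSMUST00000123036, 745 bases), a ratio of 0.968 (interval 0.708 to 1.34). Its longest transcript (ENSMUST00000093299, 4449 bases) measured 0.789 RPKM in Δ/Δ and 0.639 RPKM in C/C, with a ratio of 1.23 (interval 1.05 to 1.46).

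Etv5 encodes a PEA3-type ETS transcription factor whose transcription follows ERK activity in many tissues. Its 5 listed transcripts had plain ratios of 0.357 to 0.511, and every counting interval lay below 1. The 2 full-length coding forms measured 0.776 RPKM in Δ/Δ and 1.595 RPKM in C/C (ENSMUST00000079601, chromosome 16, 22381309 to 22439719, minus strand), and 0.779 RPKM in Δ/Δ and 1.58 RPKM in C/C (ENSMUST00000168774). The transcript that stood for the gene by its highest mean was a non-coding fragment of 342 bases (ENSMUST00000165506) at 1.21 RPKM in Δ/Δ and 2.96 RPKM in C/C, from 80 reads in Δ/Δ and 173 in C/C. On that transcript the log2 ratio of -1.02 passed the rule by a narrow margin. With the longest coding transcript in its place it was -0.72 and did not pass, and after centring on the median of all measured genes it was -0.92. The transcripts overlap and share reads, so they are not separate measurements.

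**Figure D2:**
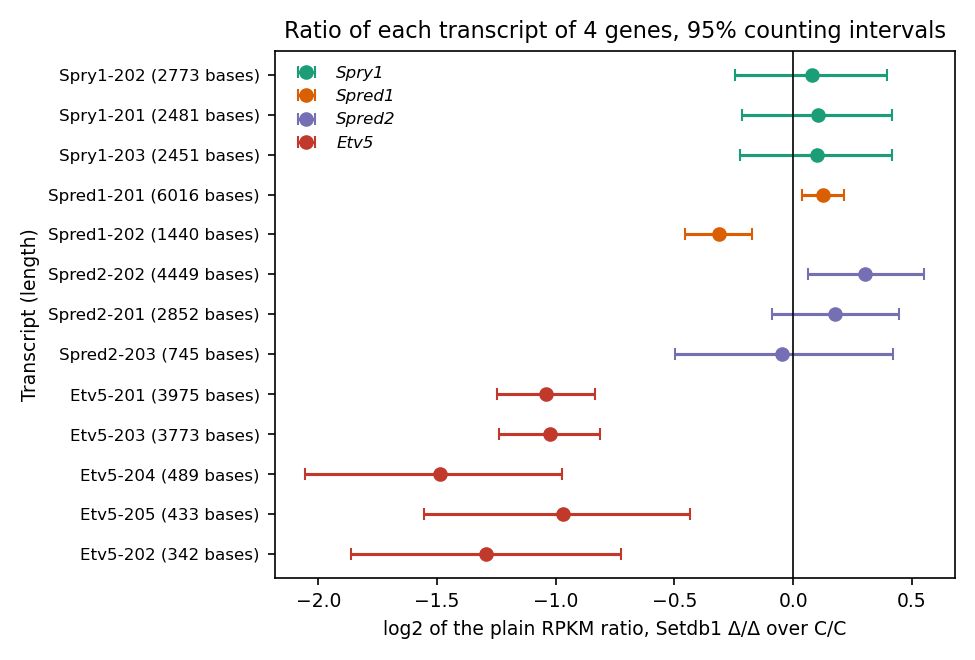
Log2 of the plain RPKM ratio, Setdb1 Δ/Δ over C/C (horizontal axis), for each listed transcript of the 4 genes with several transcripts (rows, with length in bases); bars are 95% counting intervals. The 5 Etv5 transcripts lie left of 0 with their intervals, the 3 Spry1 transcripts span 0, and the 2 Spred1 transcripts lie on opposite sides.

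Irs2 had the lowest log2 ratio of the 9 genes. Its listed transcript (ENSMUST00000040514, 6323 bases, on the minus strand of chromosome 8) measured 3.07 RPKM in Δ/Δ and 8.29 RPKM in C/C, from 3749 reads in Δ/Δ and 8939 in C/C. The plain ratio of 0.370 had an interval of 0.351 to 0.391, and the log2 ratio was -1.30, with 4.38% of measured genes lower still. The opposite-strand RNA gene 9530052E02Rik shares 162 exonic bases with the 5′ end of Irs2 and measured 0.360 RPKM in Δ/Δ and 1.41 RPKM in C/C (66 reads in Δ/Δ, 229 in C/C), also lower. Reads in the shared bases cannot be assigned to either gene. Of its family, Irs1 fell as well, to 1.20 RPKM in Δ/Δ against 3.21 RPKM in C/C (log2 ratio -1.13), although with a pseudocount of 1 RPKM it did not pass (-0.94) and at a filter of 5 RPKM it was not measured. Irs3 measured 0.0380 RPKM in Δ/Δ and 0.0680 RPKM in C/C, and Irs4 was listed at 0 in both.

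**Figure D3:**
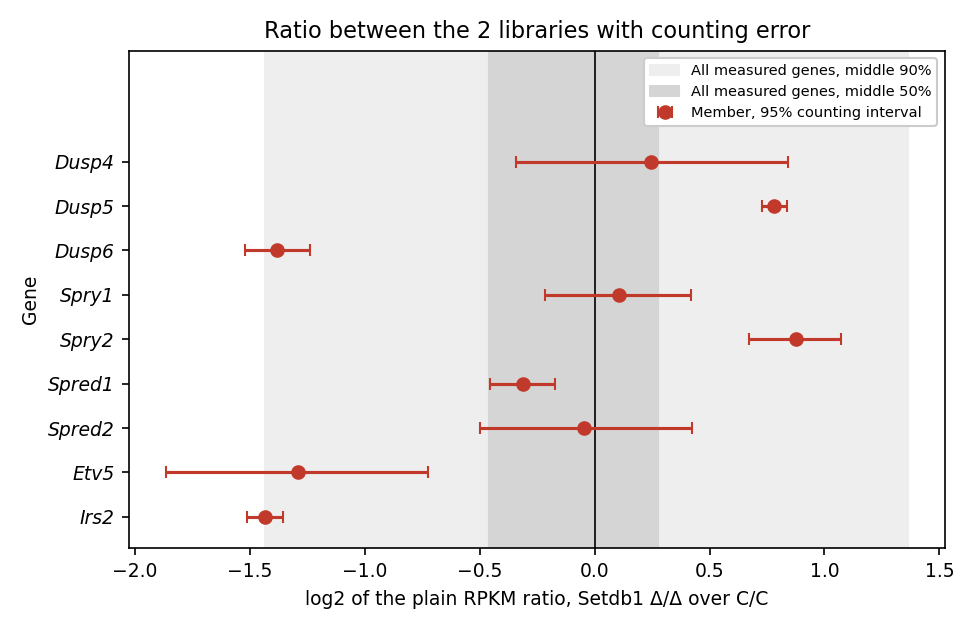
Log2 of the plain RPKM ratio, Setdb1 Δ/Δ over C/C (horizontal axis), for each of the 9 genes; points are the transcripts of highest mean, bars their 95% counting intervals, and the shaded bands hold the middle 50% and 90% of all measured genes. Dusp6, Etv5 and Irs2 lie near the lower edge of the 90% band, and Dusp5 and Spry2 lie right of the 50% band but inside the 90% band.

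By counting error alone, on transcripts of highest mean, intervals lay below 1 for 4 of the 9 genes (Dusp6, Etv5, Irs2 and the short Spred1 transcript). They lay above 1 for 2 (Dusp5 and Spry2) and on both sides of 1 for 3 (Dusp4, Spry1 and Spred2). The tally depends on the transcript taken. Intervals of the longer Spred1 transcript (1.03 to 1.16) and the longest Spred2 transcript (1.05 to 1.46) lay above 1. At this depth most genes differ by more than counting error, since 47.7% of all measured genes had an interval below 1 and 33.5% above 1. The order of the levels changed between the libraries. In Δ/Δ it ran Dusp5, Spred1, Spry2, Irs2, Dusp6, Etv5, Spred2, Spry1, Dusp4, in which Spry2 and Irs2 (3.16 and 3.07 RPKM) and Etv5 and Spred2 (1.21 and 1.20 RPKM) were close neighbours. In C/C it ran Dusp5, Irs2, Spred1, Dusp6, Etv5, Spry2, Spred2, Spry1, Dusp4. Both orders, and the sums below, rest on short transcripts for Etv5 (342 bases), Spred2 (745 bases) and Spred1 (1440 bases). On the longest coding transcripts in C/C, Spred1 (3.62 RPKM) stood below Dusp6 (5.55 RPKM), and Etv5 (1.595 RPKM) below Spry2 (1.73 RPKM). The summed level of the 9 genes was 51.9 RPKM in Δ/Δ and 47.7 RPKM in C/C, of which Dusp5 made up 66.7% in Δ/Δ and 42.3% in C/C. Without Dusp5 the other 8 genes summed to 17.3 RPKM in Δ/Δ and 27.5 RPKM in C/C, a ratio of 0.628.

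The promoters are shown to set the genes that were lower in Δ/Δ beside the pair with the highest ratios. Of the 9 genes, 8 matched RefSeq's promoter table (build GRCm38.p6), with 9 promoters. The 250 bases before each start were searched on both strands for the ETS core CCGGAA, AP-1 (TGANTCA), CRE (TGACGTCA), STAT (TTCNNNGAA), FOXO (GTAAACA), the CArG box bound by serum response factor, and the octamers TGAATGAA and TGAATGGA bound by the ERK-sensitive repressor CIC. In each line the sequence runs 5′ to 3′ towards the start, and capitals mark the matches. The start is RefSeq's, and among the genes shown it differed from that of the measured transcript for Dusp5, Etv5 and Irs2. The Dusp5 window runs into the listed transcript, which begins at 53529109. The Etv5 window runs into the longest listed transcript, which begins at 22439719. The Irs2 window lies upstream of the listed start at 11008458.
Dusp5 (chr19:53528895-53529144, plus strand): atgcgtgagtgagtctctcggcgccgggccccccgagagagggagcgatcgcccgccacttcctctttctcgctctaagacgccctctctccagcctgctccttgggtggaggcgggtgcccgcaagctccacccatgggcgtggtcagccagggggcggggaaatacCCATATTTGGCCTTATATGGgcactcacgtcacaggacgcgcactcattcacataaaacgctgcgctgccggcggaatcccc
Spry2 (chr14:105896820-105897069, minus strand): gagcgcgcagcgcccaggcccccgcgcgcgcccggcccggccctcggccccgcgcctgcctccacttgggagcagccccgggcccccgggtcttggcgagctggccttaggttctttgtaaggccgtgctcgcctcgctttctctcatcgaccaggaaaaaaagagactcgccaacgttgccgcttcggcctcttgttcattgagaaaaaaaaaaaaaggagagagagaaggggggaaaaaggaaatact
Dusp6 (chr10:99262981-99263230, plus strand): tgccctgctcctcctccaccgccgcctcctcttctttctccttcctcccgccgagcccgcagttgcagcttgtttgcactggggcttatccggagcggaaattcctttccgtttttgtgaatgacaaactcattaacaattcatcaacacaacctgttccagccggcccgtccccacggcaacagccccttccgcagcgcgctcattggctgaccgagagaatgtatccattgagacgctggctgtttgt
Etv5 (chr16:22439571-22439820, minus strand): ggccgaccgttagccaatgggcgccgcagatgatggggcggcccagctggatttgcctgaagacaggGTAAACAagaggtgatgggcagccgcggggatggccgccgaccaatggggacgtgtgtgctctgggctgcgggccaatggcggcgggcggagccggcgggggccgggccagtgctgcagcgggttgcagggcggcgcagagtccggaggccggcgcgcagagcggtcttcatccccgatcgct
Irs2 (chr8:11008930-11009179, minus strand): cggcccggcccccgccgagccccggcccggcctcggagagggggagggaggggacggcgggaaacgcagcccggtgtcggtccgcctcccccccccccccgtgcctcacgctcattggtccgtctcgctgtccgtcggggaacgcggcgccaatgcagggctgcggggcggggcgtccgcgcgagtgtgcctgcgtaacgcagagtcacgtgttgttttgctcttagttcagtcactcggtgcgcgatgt
Dusp5 held 2 adjoining CArG boxes, 82 to 73 and 72 to 63 bases before its start, where 1.47% of 32851 promoters of this length held at least 1. CArG boxes are the element through which serum response factor and its ETS partners, which ERK phosphorylates, drive immediate early genes. The first of the 2 Etv5 promoters held a FOXO match 183 to 177 bases before its start, as did 3.17% of all promoters. No other match to any of these motifs was found in the 9 promoters, against 12.03% of all promoters with the ETS core, 6.75% with AP-1, 7.02% with STAT, 1.55% with CRE, and 1.08% and 1.01% with the octamers. The genes lower in Δ/Δ shared no match in this window, which says nothing of elements elsewhere. GC content of the 9 promoters ran from 56.0% to 72.8%, against a median of 52.4% over all promoters.

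Among the other MAP kinase phosphatases, 2 of 5 measured genes were lower and 1 higher in Δ/Δ (list median -0.91, all measured genes -0.09). Of all measured genes 6.66% were lower and 6.28% higher. Dusp10, which acts on JNK and p38, fell to 1.91 RPKM in Δ/Δ against 13.3 RPKM in C/C, a log2 ratio of -2.52. Dusp2, a nuclear phosphatase of activated lymphocytes, fell to 41.0 RPKM in Δ/Δ against 98.3 RPKM in C/C (log2 ratio -1.25). Dusp7, the close cytoplasmic relative of Dusp6, rose to 22.5 RPKM in Δ/Δ against 9.83 RPKM in C/C (log2 ratio 1.15), and its 3 transcripts had ratios of 1.997 to 2.32. Dusp6 and Dusp7, both directed at ERK in the cytoplasm, therefore lay on opposite sides of the rule. Dusp1 measured 2.89 RPKM in Δ/Δ and 5.89 RPKM in C/C, and Dusp16 2.84 RPKM in Δ/Δ and 5.42 RPKM in C/C, both within the rule. Dusp9 (0.536 RPKM in Δ/Δ, 0.822 RPKM in C/C) and Dusp8 (0.0970 RPKM in Δ/Δ, 0.289 RPKM in C/C) did not reach 1 RPKM.

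The remaining Sprouty and Spred relatives with a value stayed under 1 RPKM. Spry4 was listed at 0 in Δ/Δ and at 0.005 RPKM in C/C. Spred3 measured 0.203 RPKM in Δ/Δ and 0.322 RPKM in C/C, from 159 reads in Δ/Δ and 223 in C/C, a ratio of 0.630 (interval 0.467 to 0.848). Spry3 was looked up by name, but no matched transcript carried that name, so it has no value here. Of Etv5's PEA3 relatives, Etv1 measured 0.524 RPKM in Δ/Δ and 0.283 RPKM in C/C, and Etv4 0.0350 RPKM in Δ/Δ and 0.0730 RPKM in C/C.

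Of the cascade that these genes restrain, 1 gene passed the rule. Of 30 genes from the GRB2 adaptor to the kinases downstream of ERK, all measured, 1 was lower and 0 higher. The shares of all measured genes were 6.66% and 6.28%. The median log2 ratio of the 30 genes, -0.10, was close to the -0.09 of all measured genes. The lower one was Rasgrp1, a RAS activator that responds to diacylglycerol, at 6.59 RPKM in Δ/Δ and 21.6 RPKM in C/C (log2 ratio -1.64). Its relative Rasgrp3 measured 1.62 RPKM in Δ/Δ and 3.67 RPKM in C/C and came close to the rule at -0.98. The highest log2 ratios were those of Hras at 0.47 (30.4 RPKM in Δ/Δ, 21.8 RPKM in C/C) and of the ERK-activated kinase gene Rps6ka2 at 0.34 (2.001 RPKM in Δ/Δ, 1.47 RPKM in C/C). Nf1, chosen after its value was seen, measured 2.46 RPKM in Δ/Δ and 2.48 RPKM in C/C.

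Other genes that respond to ERK or carry its signal to transcription gave 1 higher and 1 lower of 11 measured (median -0.53). Among all measured genes 6.28% were higher and 6.66% lower (median -0.09). Fos, an immediate early gene with an SRF-dependent promoter, rose to 3.43 RPKM in Δ/Δ against 1.19 RPKM in C/C (log2 ratio 1.22), whereas Egr1, of the same class, measured 0.336 RPKM in Δ/Δ and 1.004 RPKM in C/C (log2 ratio -0.85, within the rule). Maff, a small MAF transcription factor gene, fell to 0.554 RPKM in Δ/Δ against 2.18 RPKM in C/C (log2 ratio -1.35). Myc measured 26.8 RPKM in Δ/Δ and 20.9 RPKM in C/C. Cic, chosen after its value was seen and known as a repressor of PEA3 genes, measured 22.0 RPKM in Δ/Δ and 38.3 RPKM in C/C, within the rule. Ccnd1, Phlda1, Fosl1, Ier3, Epha4, Spry4, Etv1 and Etv4 did not reach 1 RPKM in either library.

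Upstream receptors and adaptors gave 3 lower and 0 higher of 12 measured (median -0.35). All measured genes gave 6.66% lower and 6.28% higher (median -0.09). All 3 lower genes of the list belong to the (pre-)B cell receptor. The signalling chain genes Cd79a (153 RPKM in Δ/Δ, 548 RPKM in C/C, log2 ratio -1.84) and Cd79b (651 RPKM in Δ/Δ, 1372 RPKM in C/C, log2 ratio -1.08, or -0.98 after centring) fell, and so did the kinase gene Syk (70.2 RPKM in Δ/Δ, 182 RPKM in C/C, log2 ratio -1.37). Il7r, the IL-7 receptor gene, measured 13.8 RPKM in Δ/Δ and 12.2 RPKM in C/C. Csf1r, the receptor of macrophages, had the highest log2 ratio at 0.76 (7.17 RPKM in Δ/Δ, 4.04 RPKM in C/C), in the library with the higher myeloid markers. Cd79a and Cd79b are also among the B lineage markers, 4 of which were lower.

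Around Irs2, the genes of the PI3 kinase and AKT pathway gave 1 lower (Irs1) and 1 higher of 25 measured (median -0.25). The shares of all measured genes were 6.66% lower and 6.28% higher (median -0.09). The higher gene of the list was Rheb, the GTPase that activates mTORC1. It measured 34.7 RPKM in Δ/Δ and 14.9 RPKM in C/C, but on a retained-intron transcript. Its coding transcript measured 23.7 RPKM in Δ/Δ and 16.5 RPKM in C/C, a log2 ratio of 0.51 that did not pass. Pik3r5, a PI3 kinase regulatory subunit gene, measured 18.0 RPKM in Δ/Δ and 9.90 RPKM in C/C (log2 ratio 0.83), and Foxo4 4.65 RPKM in Δ/Δ and 7.34 RPKM in C/C (log2 ratio -0.61). Foxo1, chosen after its value was seen, measured 8.96 RPKM in Δ/Δ and 11.6 RPKM in C/C.

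Known FOXO targets of lymphocytes, the class to which Irs2 belongs, gave 6 lower and 1 higher of 15 measured (median -0.45). Among all measured genes 6.66% were lower and 6.28% higher (median -0.09). This list was drawn up with earlier results of these data known. Klf2, a transcription factor of lymphocyte quiescence and trafficking, fell to 1.98 RPKM in Δ/Δ against 21.9 RPKM in C/C (log2 ratio -3.18). The recombinase gene Rag1 (6.64 RPKM in Δ/Δ, 27.3 RPKM in C/C, log2 ratio -1.96) and the cyclin G2 gene Ccng2 (36.3 RPKM in Δ/Δ, 119 RPKM in C/C, log2 ratio -1.70) fell too. The other 8 measured genes were within the rule. Among these were Rag2 (5.395 RPKM in Δ/Δ, 5.88 RPKM in C/C), chosen after its value was seen, and Il7r, given above. Cdkn1b, the cell cycle inhibitor p27 (24.9 RPKM in Δ/Δ, 52.2 RPKM in C/C), and Bcl6, a transcriptional repressor (1.15 RPKM in Δ/Δ, 2.88 RPKM in C/C), passed at -1.05 and -1.04 but not after centring, at -0.96 and -0.95. Bcl2l11, the gene for the pro-apoptotic protein BIM, was the higher gene (94.4 RPKM in Δ/Δ, 19.8 RPKM in C/C, log2 ratio 2.23), and Sesn1 measured 36.5 RPKM in Δ/Δ and 28.2 RPKM in C/C. Rag1 is also a B lineage marker, a list in which by the size rule 4 of 12 genes were lower and 0 higher in the same library.

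**Figure D4:**
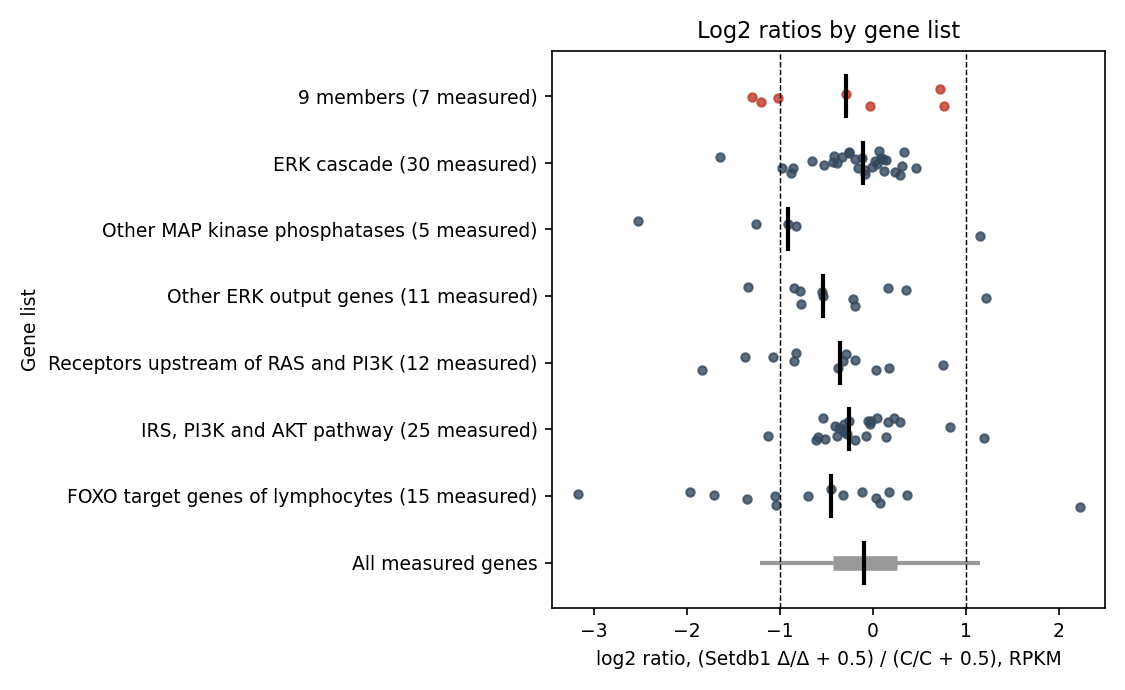
Log2 ratio, (Setdb1 Δ/Δ + 0.5) over (C/C + 0.5) in RPKM (horizontal axis), of every measured gene of the 9 genes and of each pathway list (rows); each point is 1 gene, placed at random within its row, black ticks are medians, and the bottom bar holds the middle 50% (thick) and 90% (thin) of all measured genes. Dashed lines mark the size rule, and the ERK cascade genes lie mostly between them, with Rasgrp1 at -1.64 outside.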

How the data were processed

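The authors deposited 1 table of RPKM values per Ensembl transcript, rounded to 3 decimals, with a column headed Del, read as Setdb1 Δ/Δ, and a column headed Wt, read as Setdb1 C/C. The submitters' processing notes name TopHat2 2.0.9, bedtools and the builds mm9 and mm10; the build of this table, its counting rule, strand setting and annotation release were not given in the sources used here. Transcript IDs were matched to GENCODE M21 (GRCm38), which named 89571 transcripts (95.7%); 4044 without a name entered no comparison. Coordinates are those of this annotation.

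Each gene was represented by the transcript with its highest mean RPKM. For some named genes this was not annotated as protein-coding, among them Hras, Fos, Dusp16, Pik3r5 and Ccng2. Their longest coding transcripts gave log2 ratios of 0.48, 1.12, -0.46, 0.85 and -1.34. Levels differed more: the longest coding transcript measured 11.3 RPKM in Δ/Δ and 7.97 RPKM in C/C for Hras. For Ccng2 it measured 26.3 RPKM in Δ/Δ and 67.5 RPKM in C/C. Depth was the value that made RPKM times GENCODE length whole numbers of reads for transcripts of 100 to 800 bases: 95.6% of low values in Δ/Δ and 96.4% in C/C lay within 0.1 of a whole number. Since more transcripts had 2 reads than 1 (750 against 540 in Δ/Δ, 662 against 601 in C/C), 2 reads were taken as 1 fragment. Intervals of ratios are exact (Clopper-Pearson, 95%), treat fragments as Poisson counts and leave out all error but that of counting. At these depths 3 reads on a 2 kilobase transcript are 0.00776 RPKM in Δ/Δ and 0.00879 RPKM in C/C. The depth search and the size rule were tested on simulated data. With 1 library per genotype no test was made, and the size rule on log2(RPKM + 0.5) values, which understates changes of low genes, took its place.

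The genes and the lists were chosen with earlier results of these data known. Named from each list were genes past the rule and the 2 highest and 2 lowest measured log2 ratios; exceptions are marked, and some list genes are not reported here. The 9 alternatives tried changed pseudocount, scaling, transcript choice, filter or rule. Python 3.11.15, numpy 2.4.6, pandas 2.3.3, scipy 1.17.1 and matplotlib 3.10.9 were used.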

Additional observations from a re-analysis of the deposited data

How the results depend on the processing

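No gene among the 9 that passed the rule changed sign under any of the 9 alternatives. Dusp6 kept log2 ratios of -1.34 to -1.06 and Irs2 of -1.40 to -1.19, and both stayed past the 2-fold rule under every alternative that kept it. Etv5 ranged from -1.23 to -0.72 and did not pass after centring (-0.92), with a common RPKM sum without the 20 most abundant transcripts (-0.93), with the longest protein-coding transcript (-0.72) or with a pseudocount of 1 RPKM (-0.84), and at a filter of 5 RPKM it was not measured. Dusp5 ranged from 0.75 to 0.88 and Spry2 from 0.61 to 0.84 and did not pass under any of them. Spred1 (-0.31 to 0.11) and Spred2 (-0.04 to 0.18) took either sign. A 4-fold rule left 0 of the 9 genes lower, 220 of all measured genes higher and 234 lower (788 and 836 at 2-fold), and in the pathway lists together 1 gene higher and 2 lower (4 and 14 at 2-fold). A filter of 5 RPKM left 452 of all measured genes higher and 510 lower. These counts fall by construction. With a common RPKM sum 928 of all measured genes were higher and 718 lower, so the excess of lower calls turned round as it did with centring. Of the pathway genes named, Irs1 and Bcl6 did not pass with a pseudocount of 1 RPKM (-0.94 and -0.86), and Cd79b, Cdkn1b and Bcl6 did not after centring (-0.98, -0.96 and -0.95) or with the common RPKM sum (-0.96, -0.94 and -0.95). Cdkn1b (-0.94) and Rheb (0.51) did not with the longest protein-coding transcript, nor Rheb with the sum over transcripts (0.81). Fos, Maff, Irs1 and Bcl6 were not measured at a filter of 5 RPKM. No paired analysis was possible because there was 1 library per genotype and no test. No replicate could be left out for the same reason. Depth limits Dusp4 most, with 118 reads in Δ/Δ and 88 in C/C.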

Other observations

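The protein-coding genes next to the 9 genes on the chromosome, 2 on each side, were also read. Of these 36 neighbours 21 were measured, 2 were higher and 1 was lower in Δ/Δ, counts close to the 6.28% higher and 6.66% lower among all measured genes. Their median log2 ratio was 0.31, against -0.09 for all measured genes. Both higher ones lie on the same side of Dusp4 on chromosome 8, at 636 and 660 kilobases. Saraf, a regulator of store-operated calcium entry, measured 12.9 RPKM in Δ/Δ and 5.26 RPKM in C/C (log2 ratio 1.22), and Leprotl1 7.88 RPKM in Δ/Δ and 3.65 RPKM in C/C (log2 ratio 1.01). The lower one was Rasgrp1, 97.7 kilobases beyond Spred1 on chromosome 2. Fam98b, which lies between Spred1 and Rasgrp1, measured 2.78 RPKM in Δ/Δ and 2.39 RPKM in C/C. None of the 4 neighbours of Irs2 reached 1 RPKM, whereas Irs2 itself measured 3.07 RPKM in Δ/Δ and 8.29 RPKM in C/C. The nearest measured neighbour of Dusp6, Poc1b, a centriole gene 65.2 kilobases away, measured 4.26 RPKM in Δ/Δ and 5.00 RPKM in C/C. All 4 neighbours of Dusp5 were measured and within the rule. The log2 ratio was -0.47 for Nutf2-ps1 (1.31 RPKM in Δ/Δ, 2.01 RPKM in C/C), the nearest at 45.7 kilobases, and -0.71 for Mxi1 (5.15 RPKM in Δ/Δ, 8.77 RPKM in C/C). It was 0.41 for the cohesin subunit gene Smc3 (35.8 RPKM in Δ/Δ, 26.9 RPKM in C/C) and 0.24 for Smndc1 (10.3 RPKM in Δ/Δ, 8.66 RPKM in C/C).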
